A study of Mus musculus with 24 samples.

Results

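The genes described here are 10 transcription factors that mark or shape cranial neural crest mesenchyme: Twist1, Twist2, Prrx1, Prrx2, Snai1, Snai2, Foxc1, Foxc2, Tfap2a and Tfap2b. They were chosen by name, and every probe set that the platform annotation assigns to 1 of these symbols alone was taken. That gave 20 probe sets for the 10 genes, out of 34945 probe sets and 18193 genes with a single symbol. Where a gene had several, the set that was brightest on average over the 24 arrays gave its main value. All 10 main probe sets lay above the array's own median on all 24 arrays, so all 10 were among the 12811 genes tested.

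Neural crest cells leave the border of the neural tube by an epithelial-to-mesenchymal transition, migrate into the face and form the bone, cartilage and connective tissue of the jaws. Snail-family zinc fingers and Twist-family basic helix-loop-helix factors drive that transition and later mark mesenchyme, Prrx homeobox factors pattern limb and facial mesenchyme, Foxc forkhead factors act in head and periocular mesenchyme, skull and cartilage, and AP-2 factors specify crest and are also active in surface ectoderm. TGF-beta is a well known inducer of Snail and Twist genes in cultured epithelial cells.

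The series profiled jaws of C57B6 mouse embryos at day 14.5 of gestation, to chart expression as the lower and upper jaws form. Mutants came from crosses of Wnt1-Cre;Tgfbr2 fl/+ with Tgfbr2 fl/fl mice. Wnt1-Cre targets neural crest and its descendants, where it deletes floxed Tgfbr2, the type II TGF-beta receptor gene. Epithelium, endothelium, muscle fibres and blood of a mutant embryo do not come from crest and lie outside that target. The labels do not give the extent of deletion. Each maxilla and each mandible was cut into a distal and a proximal end, which gave 8 groups of 3 arrays: control and mutant distal maxilla, proximal maxilla, distal mandible and proximal mandible. Mutants were picked out by their cleft palate and skull defect, and controls were littermates, with their own alleles not stated in the labels. The labels do not say whether the 3 arrays of a group are separate embryos, litters or pools, so the p-values reflect only how far these arrays vary, and that spread may be technical. Each piece is bulk tissue, so fewer cells of a type and less RNA per cell cannot be told apart. Values are log2 signals, differences are log2 differences ± the standard error of the limma fit, and "called" means an adjusted p under 0.05 (limma, Benjamini-Hochberg over the 12811 genes).

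The mesenchymal markers Pdgfra (12.24 to 12.84) and Col1a2 (14.24 to 14.83) were bright on all 24 arrays. Hand2, a mandibular arch factor, was higher in the control mandible than in the control maxilla by 6.88 ± 0.37 in the distal ends (adjusted p = 3.35e-09, limma). The Tgfbr2 probe set read higher in mutants in the mean of the 4 regions (0.45 ± 0.06, adjusted p = 0.0355, limma), and because the labels do not state which exon was deleted, it does not check the genotype. Array 1 of the mutant distal maxilla and arrays 1 and 2 of the mutant proximal maxilla stood apart from the other maxilla arrays. Their cartilage marker means, centred on the 24 arrays, were -2.78, -2.76 and -3.01, against -0.18 to 1.84 in the control maxilla, and their skeletal muscle means were 1.10, 1.76 and 0.95, against -2.26 to -0.90. All 3 are mutants, so this difference cannot be told apart from genotype. Main differences and calls that rest on them are also given without them, which leaves array 3 as the only mutant proximal maxilla. Correlations are given with them only.

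Promoter sequences are shown for both Twist genes, which responded with very different sizes, and for Foxc1 and Snai1, the forkhead and Snail members whose window lies outside the annotated gene. Capitals mark the AP-2 motif GCCNNNGGC (searched on both strands), the site type that 2 of the 10 factors themselves recognise. The windows are the 250 bases before the transcription start from RefSeq, build GRCm38.p6, printed 5′ to 3′ on the gene's strand.
Twist1 promoter, chr12:33957421-33957670, plus strand: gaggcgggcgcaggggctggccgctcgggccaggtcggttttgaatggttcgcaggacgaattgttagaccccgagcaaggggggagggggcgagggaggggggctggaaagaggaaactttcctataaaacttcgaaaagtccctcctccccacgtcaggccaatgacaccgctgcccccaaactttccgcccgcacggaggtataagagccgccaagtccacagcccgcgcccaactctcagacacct
Twist2 promoter, chr1:91801211-91801460, plus strand: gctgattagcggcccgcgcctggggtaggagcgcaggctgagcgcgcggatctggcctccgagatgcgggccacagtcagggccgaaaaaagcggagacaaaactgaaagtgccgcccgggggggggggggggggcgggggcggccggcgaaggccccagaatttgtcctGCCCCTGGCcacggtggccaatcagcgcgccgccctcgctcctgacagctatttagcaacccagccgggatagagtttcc
Foxc1 promoter, chr13:31806396-31806645, plus strand: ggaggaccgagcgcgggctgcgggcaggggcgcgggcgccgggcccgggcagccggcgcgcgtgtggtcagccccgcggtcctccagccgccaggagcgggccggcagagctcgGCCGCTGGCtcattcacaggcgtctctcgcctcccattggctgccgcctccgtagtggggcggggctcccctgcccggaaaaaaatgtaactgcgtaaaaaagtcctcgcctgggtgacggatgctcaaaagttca
Snai1 promoter, chr2:167537945-167538194, plus strand: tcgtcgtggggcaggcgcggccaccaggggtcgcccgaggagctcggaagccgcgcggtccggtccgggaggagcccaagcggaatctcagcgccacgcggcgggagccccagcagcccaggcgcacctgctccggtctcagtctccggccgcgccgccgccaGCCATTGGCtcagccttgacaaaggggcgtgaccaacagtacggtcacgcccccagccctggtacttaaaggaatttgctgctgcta
Of the 10 genes, 8 had a promoter entry, and the 2 without were Snai2 and Foxc2. The AP-2 motif occurred in the windows of Twist2 (GCCCCTGGC at -80), Foxc1 (GCCGCTGGC at -136), Snai1 (GCCATTGGC at -87) and Prrx2, and in 13.7% of 32851 mouse promoter windows of this length. It was not in the Twist1 window. The member windows with the AP-2 motif held 68.8% to 70.8% G and C, and the other member windows 46.4% to 62.4%. The part of base composition was not tested. The E-box CANNTG, the site type of Snail and Twist proteins, occurred in the windows of Snai1 (CACCTG at -126) and Tfap2b (CATTTG at -58), against 66.2% of all windows. The short Smad element CAGAC was in the Twist1, Prrx1 and Tfap2b windows, and in 42.2% of all windows. The GC box GGGCGG, also searched, was in the Twist1, Twist2, Prrx2, Foxc1 and Tfap2a windows, and in 32.7% of all windows. These matches describe the letters of the windows and were not tested as binding sites.

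Loss of Tgfbr2 went with the most member calls in the proximal maxilla. There 6 of the 10 genes were called, where 23.3% of all tested genes were: Twist2, Twist1, Snai2 and Prrx1 were higher in mutants, and Foxc1 and Foxc2 were lower. Of all tested genes, 12.2% were called higher and 11.1% lower. In the proximal mandible Snai2 alone was called, and higher, where 4.34% of all genes were called, 1.27% higher and 3.07% lower. In the distal maxilla and the distal mandible none of the 10 was called, against 0.195% and 0.742% of all genes. At an unadjusted p under 0.05, 1 of the 10 passed in each of these 2 regions, against 1177 and 1620 of all genes, and the gene was Snai2 both times. The median difference of the 10 was 0.19 in the proximal maxilla, -0.07 in the distal maxilla, 0.10 in the distal mandible and 0.10 in the proximal mandible, while over all genes the medians were 0.01, -0.01, 0.03 and -0.04. Mutant and control arrays did not overlap for 5 of the 10 in the proximal maxilla (36.2% of all genes), 1 in the distal maxilla (11.6%), 2 in the distal mandible (22.0%) and 2 in the proximal mandible (24.2%). Without the 3 arrays that stand apart, none of the 10 was called in the proximal maxilla, where 1.24% of all genes then were, with 1 mutant array left against 3 controls and the spread taken from the other groups.

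**Figure D1:**
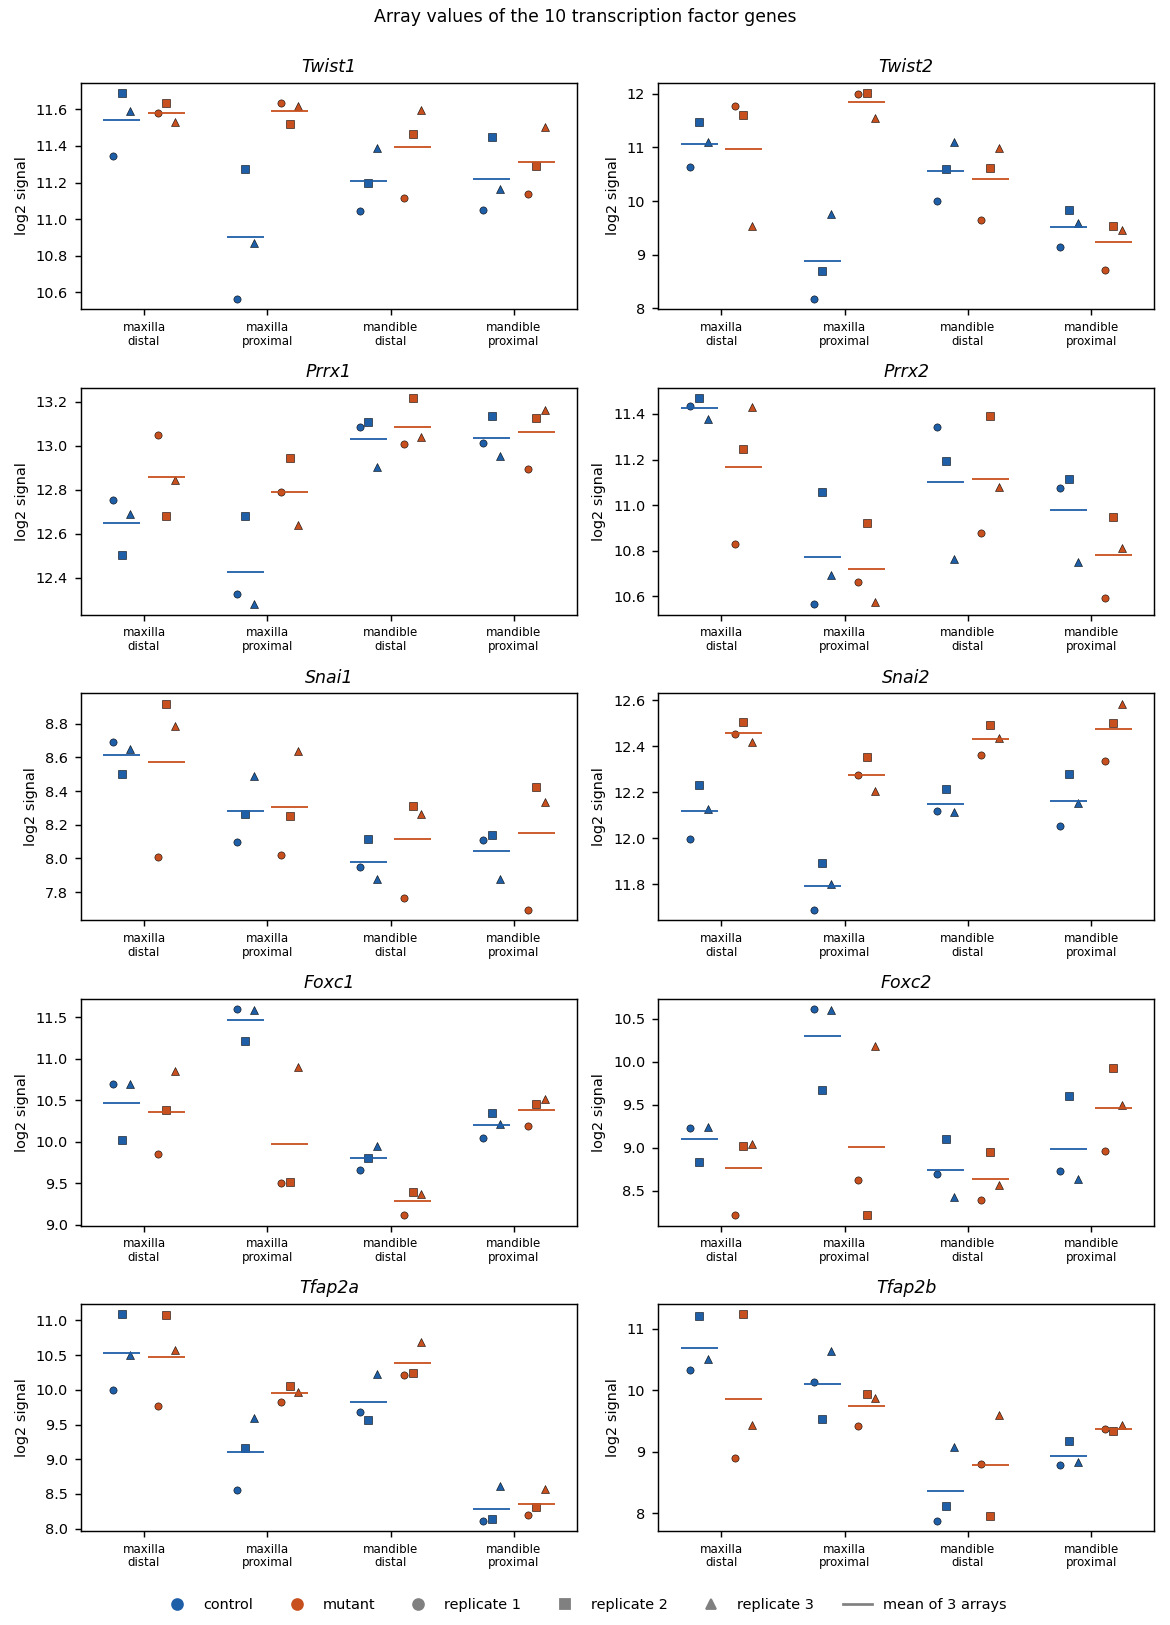
Log2 signal (y axis, a separate scale for each panel) of the main probe set of the 10 genes in the 4 jaw regions (x axis), with control arrays in blue, mutant arrays in orange, the replicate number as the marker shape and the group mean as a line. Twist2 and Foxc1 are without overlap between genotypes in the proximal maxilla, 2 of the 3 Foxc2 mutant arrays lie below its controls there, and Snai2 is higher in all 3 mutant arrays in every region.

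Snai2 (Slug), the zinc-finger repressor of epithelial genes that marks emigrating crest, was higher in every mutant array than in every control array of the same region, in all 4 regions. In the proximal maxilla the control arrays read 11.69, 11.89 and 11.80 and the mutants 12.27, 12.35 and 12.21. In the distal maxilla the controls read 11.997, 12.23 and 12.13 and the mutants 12.45, 12.51 and 12.42. The lowest mutant array thus lay above the highest control array in both ends of the upper jaw. In the distal mandible the controls read 12.12, 12.22 and 12.11 and the mutants 12.36, 12.49 and 12.44, and in the proximal mandible the controls read 12.05, 12.28 and 12.15 and the mutants 12.33, 12.50 and 12.59. The lower jaw showed the same order without overlap. A separation of this kind, mutants higher in all 4 regions, was found in 59 of the 12811 genes, or 0.461%, and Snai2 was the only one of the 10 to show it.

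The rise of Snai2 was small in size. It came to 0.48 ± 0.08 in the proximal maxilla (1.40-fold, adjusted p = 0.00058, limma) and 0.31 ± 0.08 in the proximal mandible (1.24-fold, adjusted p = 0.0301, limma). The differences in the distal maxilla (0.34 ± 0.08, adjusted p = 0.0876) and the distal mandible (0.28 ± 0.08, adjusted p = 0.102) missed the threshold in limma, as did the mean of the 4 regions (0.35 ± 0.07, adjusted p = 0.0686). In the distal mandible same-numbered arrays varied together, and with the replicate number as a block the difference of 0.28 ± 0.05 passed (adjusted p = 0.0097, limma). The proximal mandible call was lost without control array 1 or 3 or mutant array 2 or 3, with differences from 0.26 to 0.38 and adjusted p up to 0.115 over the arrays left out in turn. Without the 3 arrays that stand apart, the proximal maxilla difference was 0.41 ± 0.12 (adjusted p = 0.102), and the mean of the 4 regions was 0.34 ± 0.05 and passed (adjusted p = 0.000359, limma, with 9.99% of all genes called). That fit also took single arrays in place of averages, and single arrays with none left out called Snai2 as well.

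The main Snai2 probe set carries the suffix _x_at, which Affymetrix gives to sets that may share probes with other transcripts, so the second set, of the plain _at type, was read as well. It gave 0.33 ± 0.09 in the distal maxilla, 0.43 ± 0.09 in the proximal maxilla, 0.35 ± 0.09 in the distal mandible and 0.34 ± 0.09 in the proximal mandible. The proximal values passed over all probe sets tested (adjusted p = 0.0038 and 0.0496, limma), and the distal ones did not. On this set too, each mutant array lay above each control array in every region. The effect did not pass a test of difference between jaws (-0.12 ± 0.08, adjusted p = 0.385) or between ends (-0.09 ± 0.08, adjusted p = 0.784, limma).

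**Figure D2:**
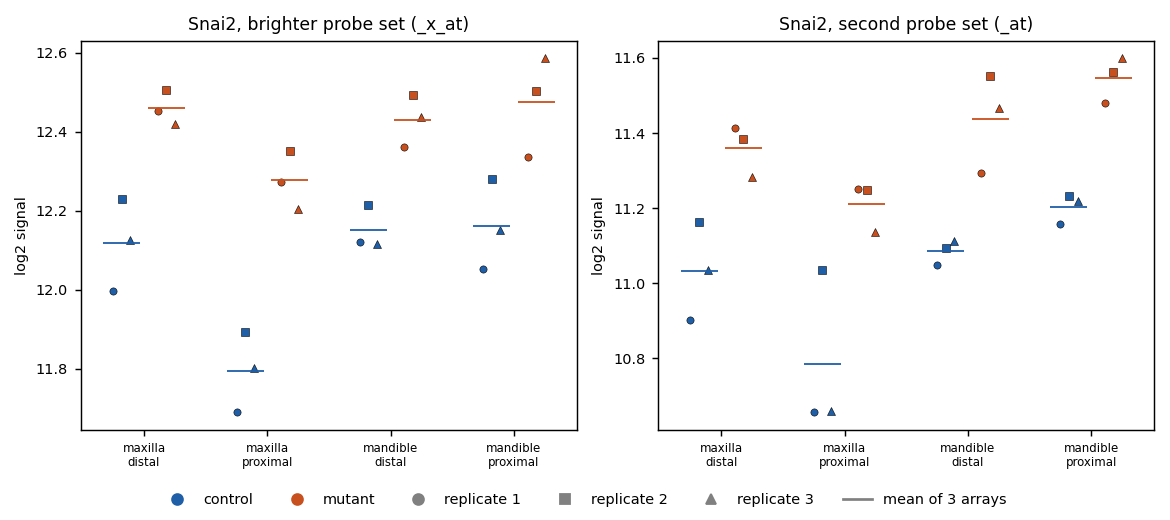
Log2 signal (y axis) of Snai2 on its brighter probe set (left) and on its second, plain _at probe set (right) in the 4 jaw regions (x axis), with controls in blue, mutants in orange, replicate numbers as marker shapes and group means as lines. On both sets the 3 mutant arrays of each region sit above its 3 control arrays, and the control proximal maxilla has the lowest mean.

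Snai1 (Snail), the close relative of Snai2 and an early repressor of E-cadherin, did not share this pattern. Its signal lay between 7.69 and 8.92 over the 24 arrays, and mutant and control arrays overlapped in all 4 regions. The differences were -0.04 ± 0.22 in the distal maxilla, 0.02 ± 0.22 in the proximal maxilla, 0.13 ± 0.22 in the distal mandible and 0.11 ± 0.22 in the proximal mandible. The standard error of 0.22 was wide against the Snai2 differences of 0.28 to 0.48, so a like rise of Snai1 was not detectable with these arrays. Mutant arrays numbered 1 were the lowest mutants in every region (8.01, 8.02, 7.77 and 7.69).

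Twist2 (Dermo1), a basic helix-loop-helix factor of dermis and facial mesenchyme, showed the largest rise of the 10 genes. In the proximal maxilla the control arrays read 8.17, 8.70 and 9.76 and the mutant arrays 11.99, 12.02 and 11.55. All 3 mutants were higher than any control, by 2.97 ± 0.51 on average (7.85-fold, adjusted p = 0.000787, limma). The call held without any 1 array (2.62 to 3.41, adjusted p up to 0.00664), and without the 3 arrays that stand apart the difference was 2.67 ± 0.72 and missed the threshold (adjusted p = 0.0907). In the other regions the groups overlapped, with -0.10 ± 0.51 in the distal maxilla, -0.15 ± 0.51 in the distal mandible and -0.28 ± 0.51 in the proximal mandible. The difference of the effect between jaws, mandible minus maxilla, was -1.65 ± 0.51 and missed the threshold (adjusted p = 0.0523, limma), and that between ends was -1.47 ± 0.51 (adjusted p = 0.582). Both include the 3 arrays that stand apart and are not given without them.

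In controls Twist2 was graded along the upper jaw. The control distal maxilla read 10.64, 11.47 and 11.11, which was 2.19 ± 0.51 above the proximal maxilla (4.58-fold, adjusted p = 0.0151, limma). This call was lost without control distal maxilla 2 or control proximal maxilla 1 (adjusted p up to 0.105). In the control mandible the distal end also read higher without overlap (1.04 ± 0.51, adjusted p = 0.304), short of the threshold. In mutants the order in the maxilla was not seen: the mutant distal maxilla read 11.78, 11.61 and 9.53 and overlapped the proximal one (-0.88 ± 0.51, adjusted p = 0.607). This comparison holds all 3 arrays that stand apart and is not given without them. The mutant proximal maxilla had the highest mean of the 8 groups, 11.9 ± 0.264 (SD, n = 3), and the control proximal maxilla the lowest, 8.88 ± 0.807 (SD, n = 3). Within mutants the proximal maxilla exceeded the proximal mandible, so that mandible minus maxilla was -2.61 ± 0.51 (adjusted p = 0.00172, limma), and this call held in all 16 alternative settings, including the one without the 3 arrays (-2.31 ± 0.72, adjusted p = 0.0345).

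Twist1, which is needed for crest mesenchyme and skull sutures, moved in the same region by less. The proximal maxilla controls read 10.56, 11.27 and 10.87 and the mutants 11.63, 11.52 and 11.62. No mutant array overlapped a control, and the difference was 0.69 ± 0.16 (1.61-fold, adjusted p = 0.0051, limma). It was of like size without the 3 arrays that stand apart (0.72 ± 0.24) but then missed the threshold (adjusted p = 0.186). In the other regions the differences were 0.04 ± 0.16 (distal maxilla), 0.18 ± 0.16 (distal mandible) and 0.09 ± 0.16 (proximal mandible), all with overlapping arrays. In the control maxilla Twist1 was higher in the distal end by 0.64 ± 0.16 (adjusted p = 0.0202, limma). That call was lost without control distal maxilla 2 or 3 or control proximal maxilla 1 or 3 (0.47 to 0.83, adjusted p up to 0.134).

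The control proximal maxilla had the lowest group mean for Twist1 (10.9 ± 0.356, SD, n = 3), Twist2, Prrx1 (12.4 ± 0.219, SD, n = 3) and Snai2 (11.8 ± 0.102, SD, n = 3), which are the same 4 genes that were called higher in the mutant proximal maxilla. The 2 comparisons share these 3 control arrays. The mutant means of Twist1, Prrx1 and Snai2 in that region were 11.6 ± 0.0609, 12.8 ± 0.151 and 12.3 ± 0.0734 (SD, n = 3 each).

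Prrx1, a homeobox factor needed for facial and limb skeleton, differed between the jaws of control embryos. In control proximal ends the mandible read 13.01, 13.14 and 12.95 against 12.33, 12.68 and 12.28 in the maxilla. The mandible was higher without overlap, by 0.61 ± 0.12 (1.52-fold, adjusted p = 0.000687, limma), and the call held in all 16 alternative settings. The same difference was 0.38 ± 0.12 in the control distal ends (adjusted p = 0.0506, limma), also without overlap. Mutants were higher than controls in the proximal maxilla by 0.36 ± 0.12 (adjusted p = 0.033, limma), with mutant arrays at 12.79, 12.94 and 12.64 that overlapped the control array at 12.68. This call was lost without control array 1 or 3 or mutant array 1 or 2 (0.29 to 0.49, adjusted p up to 0.156), and without the 3 arrays that stand apart it was 0.21 ± 0.16. In the distal maxilla the difference was 0.21 ± 0.12 (adjusted p = 0.648).

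Prrx1 had 6 probe sets, of which 1 lay at 3.83 to 4.21 on all arrays, below every array median, and gave no reading. The other 4 additional sets gave 0.36 to 0.57 in the proximal maxilla, and 1 of them passed over all probe sets tested (0.57 ± 0.16, adjusted p = 0.022, limma). In the control proximal ends all 4 were higher in the mandible (0.44 to 0.99), and 3 of these passed. Prrx2, the partner of Prrx1 that acts with it in the lower jaw midline, showed no mutant difference past the threshold, with -0.26 ± 0.18, -0.05 ± 0.18, 0.02 ± 0.18 and -0.20 ± 0.18 in the distal maxilla, proximal maxilla, distal mandible and proximal mandible. In the control maxilla its distal end read 11.43, 11.47 and 11.38 against 10.56, 11.06 and 10.69, a rise of 0.66 ± 0.18 (adjusted p = 0.0313, limma). This was lost without any 1 array of that comparison other than control proximal maxilla 2 (0.55 to 0.80, adjusted p up to 0.147).

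**Figure D3:**
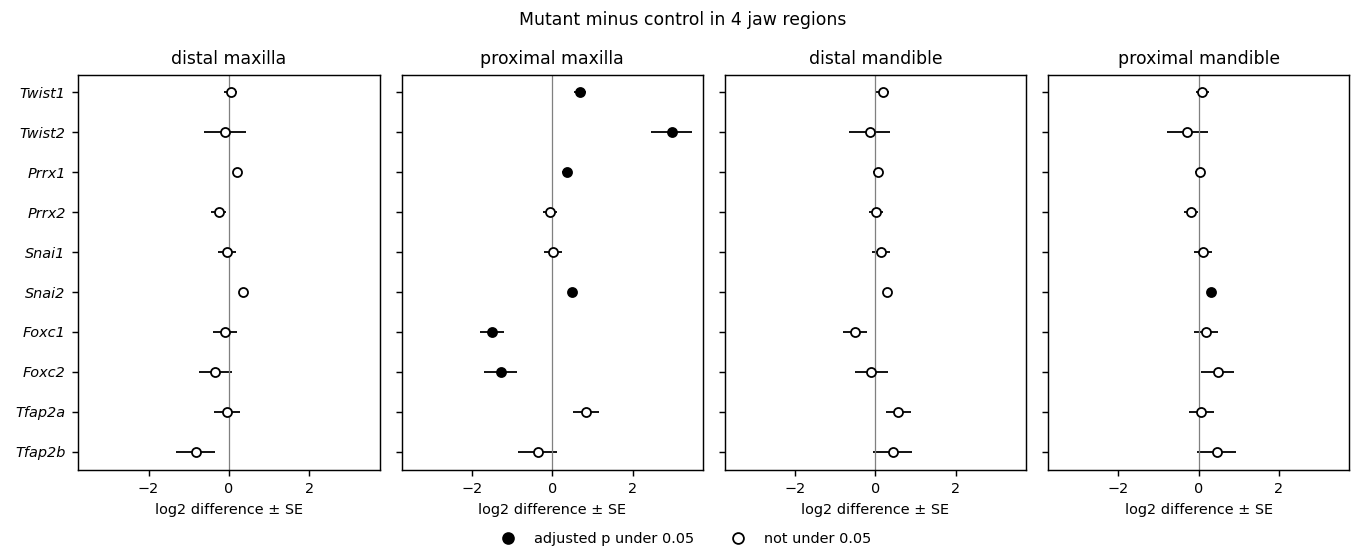
Mutant minus control (x axis, log2 difference, with bars of 1 standard error of the limma fit) for the 10 genes (y axis) in the 4 jaw regions (panels), with filled points for an adjusted p under 0.05 and n = 3 arrays per group. The proximal maxilla has 6 filled points, from Twist2 at 2.97 to Foxc1 at -1.49, the proximal mandible has 1 (Snai2) and the 2 distal regions have none.

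Foxc1 and Foxc2, paired forkhead factors of head mesenchyme, skull and cartilage, were lower in the mutant proximal maxilla. For Foxc1 the control arrays read 11.60, 11.22 and 11.59 and the mutant arrays 9.50, 9.52 and 10.90. No mutant overlapped a control, but mutant array 3 lay much nearer the controls than arrays 1 and 2. The difference was -1.49 ± 0.30 (2.82-fold lower, adjusted p = 0.00196, limma), and the second Foxc1 probe set gave -1.64 ± 0.28 (adjusted p = 0.001). For Foxc2 the controls read 10.61, 9.67 and 10.60 and the mutants 8.63, 8.22 and 10.19. Mutant array 3 lay inside the control range, and the difference was -1.28 ± 0.42 (2.44-fold lower, adjusted p = 0.0328, limma).

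Both falls rested largely on mutant arrays 1 and 2. Without the 3 arrays that stand apart, Foxc1 was lower by -0.57 ± 0.25 (adjusted p = 0.351) and Foxc2 by -0.11 ± 0.43 (adjusted p = 0.953, limma). Leaving out 1 array at a time, the Foxc1 call held (-1.96 to -1.26), while the Foxc2 call was lost without control array 1 or 3 or mutant array 1 or 2 (-1.87 to -0.89, adjusted p up to 0.188). In the other regions Foxc1 differed by -0.11 ± 0.30 (distal maxilla), -0.51 ± 0.30 (distal mandible, no overlap, adjusted p = 0.509) and 0.19 ± 0.30 (proximal mandible). In these regions Foxc2 differed by -0.34 ± 0.42, -0.10 ± 0.42 and 0.47 ± 0.42, with overlapping arrays.

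The Foxc genes were also lower in the mandible than in the maxilla of controls. Foxc1 was lower in the mandible than in the maxilla by -1.27 ± 0.30 in the control proximal ends (2.41-fold, adjusted p = 0.0028, limma), in all 16 alternative settings, and Foxc2 by -1.30 ± 0.42 (2.47-fold, adjusted p = 0.0213). The Foxc2 call was lost without control array 1 or 3 of either proximal group (-1.61 to -1.13, adjusted p up to 0.084). In the control distal ends the differences were -0.67 ± 0.30 (adjusted p = 0.17) and -0.36 ± 0.42 (adjusted p = 0.652, limma), short of the threshold. Along the control maxilla Foxc1 was lower distally by -0.998 ± 0.30 (adjusted p = 0.0449, limma), a call that was lost without any 1 of the 6 arrays (adjusted p from 0.0516 to 0.267), and Foxc2 by -1.19 ± 0.42 (adjusted p = 0.0864). In mutants the jaw difference of the proximal ends was 0.41 ± 0.30 for Foxc1 and 0.45 ± 0.42 for Foxc2, neither past the threshold, and without the 3 arrays they were -0.51 ± 0.25 (adjusted p = 0.174) and -0.73 ± 0.43 (adjusted p = 0.26, limma), so both turned sign. In the mutant mandible Foxc1 was lower in the distal end, at 9.11, 9.39 and 9.36 against 10.19, 10.45 and 10.52, by -1.09 ± 0.30 (adjusted p = 0.0114, limma, in all 16 alternative settings). In these groups the centred cartilage mean was -2.41 to 0.35 distally and 1.30 to 1.68 proximally. Of 8 cartilage markers 4 were called lower distally, where 27.1% of all genes were called in either direction. The part of cartilage and of these other tissues was not tested. In the mutant distal ends Foxc1 was lower in the mandible than in the maxilla by -1.07 ± 0.30 (adjusted p = 0.0478, limma). That call was lost without mutant distal maxilla 2 or 3 or any 1 mutant distal mandible array (-1.32 to -0.83, adjusted p up to 0.162), and was kept without the 3 arrays that stand apart (-1.32 ± 0.20, adjusted p = 0.000699).

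Tfap2a and Tfap2b encode AP-2 factors, which specify crest and also work in facial ectoderm. Tfap2a followed the end of the jaw. In the control mandible its distal end read 9.68, 9.56 and 10.22 and its proximal end 8.12, 8.15 and 8.61, a difference of 1.53 ± 0.31 (2.89-fold, adjusted p = 0.00681, limma). Distal arrays were higher without overlap in the control maxilla too (1.42 ± 0.31, adjusted p = 0.0121) and in the mutant mandible (2.03 ± 0.31, 4.09-fold, adjusted p = 0.000163). The mandible calls held in all 16 alternative settings, and the control maxilla call was lost without control distal maxilla 2 or control proximal maxilla 1 (1.14 to 1.68, adjusted p up to 0.105). In the mutant maxilla the ends overlapped (0.53 ± 0.31, adjusted p = 0.618), in a comparison that holds the 3 arrays that stand apart and is not given without them.

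The mutant effect on Tfap2a was largest in the proximal maxilla, where controls read 8.56, 9.17 and 9.60 and mutants 9.82, 10.06 and 9.97. Mutants were higher without overlap, which 36.2% of all genes showed there in 1 direction or the other, but the difference of 0.84 ± 0.31 missed the threshold (adjusted p = 0.0614, limma). It was of like size without the 3 arrays that stand apart (0.86 ± 0.41, adjusted p = 0.394). Of the 2 other Tfap2a probe sets, the brighter gave 1.05 ± 0.37 in this comparison (adjusted p = 0.054). In the distal mandible the main set gave 0.57 ± 0.31 (adjusted p = 0.482) and in the distal maxilla -0.05 ± 0.31. Within mutant proximal ends, Tfap2a was lower in the mandible than in the maxilla by -1.59 ± 0.31 (adjusted p = 0.00179, limma, in all 16 alternative settings).

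Tfap2b differed by jaw in controls, past the threshold in the distal ends only. In the control distal ends the maxilla read 10.32, 11.21 and 10.51 and the mandible 7.88, 8.11 and 9.09. The mandible was lower without overlap, by -2.32 ± 0.49 (4.99-fold, adjusted p = 0.00811, limma), and the second probe set gave -2.18 ± 0.47 (adjusted p = 0.0124). The call on the main set held in all 16 alternative settings. In the control proximal ends the mandible was also lower without overlap (-1.17 ± 0.49), short of the threshold (adjusted p = 0.0725). Between mutant jaws the difference was -1.07 in the distal and -0.36 in the proximal ends, neither past the threshold. No mutant effect on Tfap2b passed, with -0.83 ± 0.49 in the distal maxilla, where mutants read 8.90, 11.23 and 9.43, -0.35 ± 0.49 in the proximal maxilla, 0.42 ± 0.49 in the distal mandible and 0.45 ± 0.49 in the proximal mandible. Array 2 of the mutant distal maxilla was as high as the highest control, and arrays 1 and 3 lay below all 3 controls. In the proximal mandible mutants were higher without overlap, which 24.2% of all genes showed there in 1 direction or the other.

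**Figure D4:**
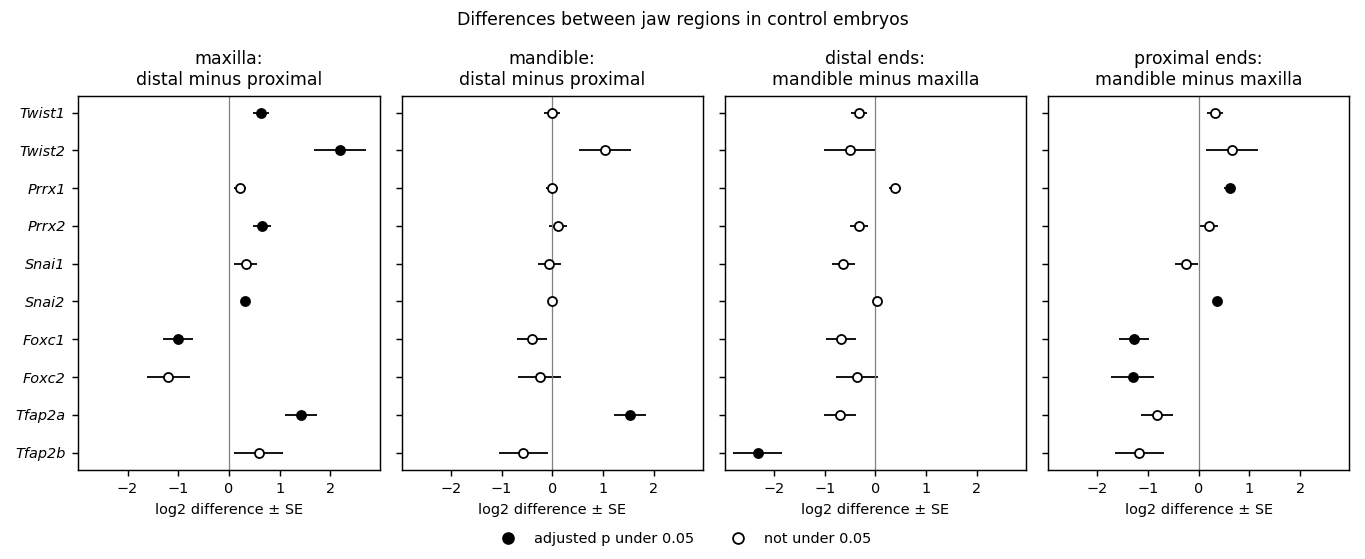
Differences between control jaw regions (x axis, log2 difference, with bars of 1 standard error of the limma fit) for the 10 genes (y axis), along the maxilla and the mandible (distal minus proximal) and between jaws at each end (mandible minus maxilla), with filled points for an adjusted p under 0.05 and n = 3 arrays per group. The maxilla panel has 6 filled points, 5 of them to the right of 0, the mandible panel has Tfap2a alone, the distal panel Tfap2b alone, and the proximal panel has Prrx1 and Snai2 to the right and Foxc1 and Foxc2 to the left.

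Counted over the 10 genes, the regional calls in controls were 6 along the maxilla, 5 higher distally and 1 lower (background 8.42% of all genes, 5.09% higher and 3.33% lower), 1 along the mandible (5.78%), 1 between jaws in the distal ends (8.81%) and 4 in the proximal ends, 2 higher in the mandible and 2 lower (33.6%, 16.6% higher and 17.0% lower). Arrays did not overlap for 8, 3, 5 and 5 of the 10 in these 4 comparisons, where 32.7%, 28.4%, 33.8% and 51.7% of all genes did not. Same-numbered control arrays varied together in the proximal ends, and with the replicate number as a block Tfap2a (-0.82 ± 0.24, adjusted p = 0.0116) and Twist1 (0.32 ± 0.12, adjusted p = 0.0491) passed there as well (limma). Snai2 was among those of the proximal ends, higher in the mandible by 0.37 ± 0.08 (adjusted p = 0.00138, limma), and among those along the maxilla, higher distally by 0.32 ± 0.08 (adjusted p = 0.0177). The call along the maxilla was lost without control distal maxilla 2 or control proximal maxilla 1 (0.27 to 0.38, adjusted p up to 0.134). Leaving out 1 array at a time, the maxilla count ranged from 0 to 5 and was 0 without either of those 2 arrays. In mutants none of the 10 was called along the maxilla (background 0.382%), 2 were called along the mandible (27.1%), 1 between jaws in the distal ends (4.29%) and 2 in the proximal ends (16.9%). None of the 10 was called for a difference of the mutant effect between jaws (background 8.26%) or between ends (background 0.0%). By limma no gene at all was called for the latter, and 982 had an unadjusted p under 0.05.

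Ranked by group mean, most pairs of neighbouring groups overlapped. The order was set by these same means, and the share of all genes with gaps of this kind was not computed. Whether the gaps are usual can therefore not be told. Twist1, Prrx1, Prrx2, Snai1 and Foxc2 had no gap between any neighbours in their order of 8 groups. Twist2 had a gap only below its top group, the mutant proximal maxilla. Foxc1 stood clear in the control proximal maxilla at the top (11.5 ± 0.217, SD, n = 3) and in the mutant distal mandible at the bottom (9.29 ± 0.153, SD, n = 3). For Snai2 the 4 mutant groups had the 4 highest means (12.3 to 12.5) and the 4 control groups the 4 lowest (11.8 to 12.2). Its gaps lay below the mutant distal mandible and above the control proximal maxilla. Tfap2a had a gap below the mutant distal mandible, and Tfap2b between the mutant and the control proximal mandible.

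Averaged over the 4 regions, none of the 10 genes was called (background 1.09%). Besides Snai2 the largest differences were Twist2 at 0.61 ± 0.25 (adjusted p = 0.289) and Foxc1 at -0.48 ± 0.18 (adjusted p = 0.266, limma). On main probe sets, differences above 0 in all 4 regions were shown by Twist1, Prrx1 and Snai2, as they were by 14.4% of all genes. The other Prrx1 probe sets did not all share this. On 1 of them the mutant mean lay below the control mean in the distal (11.63 against 11.69) and the proximal mandible (11.56 against 11.82). The brightest of them was higher in mutants at both ends (12.13 against 11.85 and 12.15 against 11.97).

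Markers of other tissues moved with genotype in the proximal maxilla, and their part in these results was not tested. Of all genes, 12.2% were called higher and 11.1% lower in that region. All 8 surface epithelium markers (such as Krt5, Krt14 and Trp63) were called higher in mutants there: the centred list mean was -2.52 to -0.06 in control arrays and 0.52 to 0.95 in mutants. Of the 8 jaw mesenchyme markers 6 were called higher (-0.52 to -0.44 in controls, 0.02 to 0.48 in mutants), as were 3 of 6 dermis markers (-0.31 to -0.07 and 0.54 to 1.00) and 5 of 8 skeletal muscle markers (-1.86 to -0.90 and -0.07 to 1.76). Called lower were 6 of 8 cartilage markers (0.40 to 1.84 in controls, -3.01 to 0.86 in mutants), 5 of 6 tested nasal and olfactory markers (2.67 to 2.89 and -1.26 to 2.11) and 5 of 7 neuron markers (1.89 to 2.22 and -0.79 to 1.49). All 6 macrophage markers and 5 of 7 endothelium markers were called higher. Without the 3 arrays that stand apart, 8 of the 82 tested markers were called in this region in place of 52, all higher in mutants. They included 3 of the jaw mesenchyme list and none of the surface epithelium list, whose median difference was then 1.89. In the other 3 regions none of the surface epithelium, jaw mesenchyme, cartilage or nasal markers was called between genotypes. Tendon markers were lower in the mutant mandible, where 3 of 4 were called in the distal end and 2 of 4 in the proximal end, the region of the Snai2 call. Their centred mean was 0.40 to 1.02 in controls and -0.55 to -0.28 in mutants distally, and 0.73 to 0.92 and -0.47 to 0.04 proximally. Besides these, 1 muscle and 1 endothelium marker were called lower in each mandible end. Of all genes, 0.742% were called in the distal mandible and 4.34% in the proximal mandible. The part of these tissues was not tested.

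Along the control maxilla, where Twist2 and Tfap2a were higher distally, all 8 surface epithelium markers and 5 of 8 jaw mesenchyme markers were called higher distally too. There 5.09% of all genes were called higher distally. Along the mandible, where Tfap2a was higher distally, 5 of 8 surface epithelium markers were called higher distally in controls and 8 of 8 in mutants. In these comparisons 5.78% and 27.1% of all genes were called in either direction. Between control jaws, Foxc1 and Foxc2 were called lower in the mandible in the proximal ends, and Tfap2b in the distal ends. The centred nasal and olfactory mean was 0.53 to 2.89 over the 6 maxilla arrays and -1.29 to -1.05 over the 6 mandible arrays. Other lists parted the same arrays in the opposite direction. Skeletal muscle was at -2.26 to -0.90 in the maxilla and 0.68 to 2.03 in the mandible. Tendon was at -0.36 to 0.10 and 0.40 to 1.02. The part of these tissues in the results was not tested.

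Over the 24 arrays, Tfap2a followed the surface epithelium list mean with r = 0.90 and Twist2 with r = 0.82, and within groups, after the group means were removed, these were 0.75 and 0.55. Foxc1 followed the nasal and olfactory list (r = 0.82, within groups 0.91), Foxc2 the cartilage list (0.75 and 0.85), and Prrx1 ran opposite to the nasal list (-0.82, within groups -0.20). Snai2 had 0.65 with the jaw mesenchyme list and -0.04 within groups. The lists named were picked from 13, and others ran as close. With the red blood cell list Snai2 had 0.44 and 0.75 within groups, and Prrx1 0.71 and 0.62. Prrx1 had -0.80 with the neuron list (within groups -0.13), and Foxc1 -0.75 with the jaw mesenchyme list (within groups -0.74). Foxc1 also had 0.65 with the cartilage list (within groups 0.75), and Foxc2 0.64 with the nasal list (within groups 0.73). These correlations describe 24 arrays that share dissections, groups and normalization, and carry no test. They include the 3 arrays that stand apart and were not computed without them. Within the mutant proximal maxilla the nasal mean ran from -1.26 to 2.11 and the cartilage mean from -3.01 to 0.86. How far the within-group values of Foxc1 and Foxc2 rest on the 3 arrays was not tested.

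**Figure D5:**
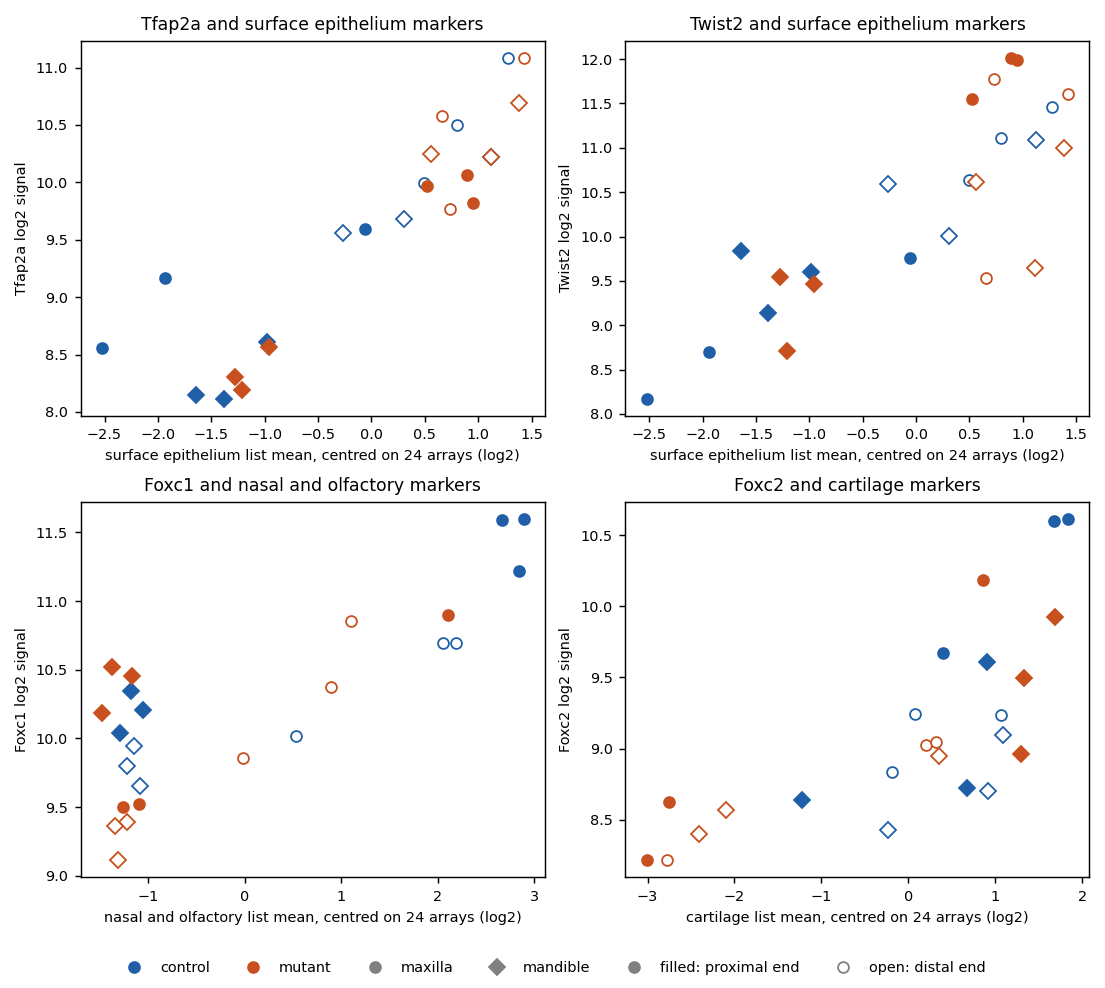
Log2 signal of Tfap2a, Twist2, Foxc1 and Foxc2 (y axes) against the mean of a tissue marker list centred on the 24 arrays (x axes, log2), with controls in blue, mutants in orange, maxilla as circles, mandible as diamonds, proximal ends filled and distal ends open. Tfap2a and Twist2 are low where surface epithelium markers are low, which holds for both mandibular proximal groups and the control proximal maxilla, and 2 mutant proximal maxilla arrays lie among the lowest for nasal markers with Foxc1 and for cartilage markers with Foxc2.

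Among the 10 genes themselves, the array values of the forkhead pair ran together (Foxc1 and Foxc2, r = 0.84 over 24 arrays), as did those of the Twist pair (0.75) and of Twist2 and Tfap2a (0.69). Prrx1 ran opposite to Tfap2b (-0.75) and Foxc1 (-0.68). The genes whose values were most like those of each member, out of 12801 other tested genes, were Cxcl14 (0.94) and Apcdd1 (0.93) for Twist2, Map3k5 (0.96) and Sfrp1 (0.95) for Foxc1, Sorbs2 (0.92) and Tlcd4 (0.91) for Foxc2, and Ppl (0.97) and Epha1 (0.96) for Tfap2a. For Snai2 they were Apln (0.90) and Rdm1 (0.89), for Twist1 Nmrk1 and Heph (0.88 each), for Prrx1 AI606473 (0.93) and Lhx8 (0.92), and for Prrx2 Nfatc4 (0.88) and Arpin (0.85). Snai1 was most like Pitpnc1 (0.87) and Pias1 (0.85), and Tfap2b most like Cpxm2 (0.85) and Boc (0.83).

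The wider pathway was read from 8 lists with 77 tested entries. In the proximal maxilla 11 of these were called higher and 15 lower, where 12.2% of all genes were called higher and 11.1% lower. In the distal maxilla and distal mandible none of the 77 was called, where 0.195% and 0.742% of all genes were, so that few or no calls among 77 is what the background gives. Without the 3 arrays that stand apart, 3 were called in the proximal maxilla: Zeb1 (0.63 ± 0.14), Shox2 (1.58 ± 0.32) and Cited2 (0.58 ± 0.14), with adjusted p of 0.0353, 0.0267 and 0.047 (limma). All 3 were higher in mutants.

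Among the other transition factors and the helix-loop-helix partners of Twist, 3 of 12 were called higher in the proximal maxilla and none lower, with a list median of 0.11. That share is near the 23.3% of all genes called there in either direction. They were the zinc-finger homeobox repressors Zeb1 (1.00 ± 0.19, adjusted p = 0.00141) and Zeb2 (1.04 ± 0.16, adjusted p = 0.000409), and the E-protein Tcf4 (0.35 ± 0.11, adjusted p = 0.0356, limma). In the proximal mandible the E-protein Tcf3 was called lower (-0.20 ± 0.05). Of 12 epithelial readouts, 6 were called lower and 1 higher, with a median of -0.78. Lower were the tight-junction genes Cldn7 (-2.73 ± 0.74), Cldn6 (-1.70 ± 0.34) and Ocln, the simple-epithelium keratins Krt18 (-1.997 ± 0.56) and Krt8 (-1.95 ± 0.57) and the adhesion gene Epcam, and higher was the desmosome gene Dsp (0.82 ± 0.21). None of these 7 was called without the 3 arrays, when Cldn7 was at -0.38 and Krt8 at -0.29. Of 7 mesenchymal readouts, Vim (vimentin) was called higher (0.27 ± 0.08) and Cdh2 (N-cadherin) lower (-0.54 ± 0.10), a share near the same 23.3%.

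Of 15 crest specifier genes, Ets1 was called higher (0.41 ± 0.09) and 4 were called lower, with a median of -0.12. These were Sox5 (-2.01 ± 0.63), Sox9 (-1.25 ± 0.40) and Sox6 (-1.12 ± 0.21), which also drive cartilage, and Sox11 (-0.65 ± 0.13). Without the 3 arrays, Sox9 was at -0.43 and Sox5 at -0.93 and none of the 15 was called. Of 9 forkhead relatives, Foxp4 (-0.59 ± 0.17) and Foxp1 (-0.36 ± 0.12) were called lower, a share near the 23.3% of all genes called in the proximal maxilla. Foxp4 was called lower in the proximal mandible as well (-0.62 ± 0.17, adjusted p = 0.0414, limma). Of 9 mesenchymal homeobox genes, the palate and jaw factors Shox2 (2.09 ± 0.25) and Lhx8 (2.00 ± 0.39) were called higher and Gsc (-1.92 ± 0.55) and Pitx1 (-0.95 ± 0.33) lower.

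The AP-2 co-activator Cited2 was the 1 gene called among 4 tested AP-2 relatives and cofactors. It was higher in the proximal maxilla (0.65 ± 0.09, adjusted p = 0.000255), in the proximal mandible (0.38 ± 0.09, adjusted p = 0.0247) and in the mean of the 4 regions (0.43 ± 0.06, adjusted p = 0.0368, limma). Shox2 was the only other gene of these lists to pass in the mean of regions (0.88 ± 0.12, adjusted p = 0.0406). Of 9 suture and skull genes, the Notch ligand Jag1 (0.61 ± 0.11) and the ephrin Efnb1 (0.26 ± 0.09) were called higher in the proximal maxilla, and none lower. This share, and that of 1 in 4 AP-2 relatives and cofactors, is near the 23.3% of all genes called there.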

How the data were processed

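Total RNA from 24 embryonic jaw pieces was labelled with biotin and hybridised to Affymetrix Mouse430_2 arrays, 3 per group in 8 groups. The authors deposited 1 log2 value per probe set and array (45101 rows). Per the submitters' processing notes RMA and Partek 6.6 were used, with settings not given in the sources used here. The log2 scale was read from the values (3.44 to 14.8). RMA sets arrays to a like distribution, so a shift of most genes would not be seen, and dim genes change less than their RNA. Columns of no listed sample numbered 0, and the 64 control probe sets were left out. Of all probe sets, 34945 had 1 symbol in the platform annotation, 932 had several and 9224 had none here, and 34741 matched a RefSeq gene by Entrez identifier.

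The 10 genes, the pathway and marker lists and the alternatives were chosen with earlier results of these data known. Named are the 10 genes, the 2 most alike tested genes for each (Pearson r), Tgfbr2, and up to 4 called genes of each list for a comparison. Where more of a list are named, these are its other called genes, chosen after their values were seen, and so are the example markers and Hand2. Genes were tested when above the array's median in at least 3 arrays, which left 12811. limma 3.58.1 (R 4.3.3, lmFit and eBayes, two-sided, Benjamini-Hochberg, threshold 0.05) fitted all 24 arrays in 8 groups. For the mean of regions, the 4 arrays of a genotype and number were averaged first, giving 3 against 3. The procedure was tested on simulated data. The number of arrays limits the precision, and the median standard error was 0.106 for 1 region. No array duplicated another of its group (root mean square differences 0.180 to 0.588).

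Whether replicate numbers pair arrays was checked from deviations from group means. Every same-numbered pair correlated above 0.1 for genotype in both mandible ends (lowest 0.15 and 0.30), for control ends in both jaws, for control jaws in the proximal ends and for mutant ends in the mandible, but not for genotype in either maxilla end. The labels give no shared litter or day. Alternatives were no filter, a stricter filter, every probe set on its own, their mean, only the compared groups, the replicate block, array weights, median centring, the fit without the 3 arrays that stand apart, and each array left out in turn.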

Additional observations from a re-analysis of the deposited data

How the results depend on the processing

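No result reversed its direction while called. The counts that follow are of the 10 genes called. In the proximal maxilla 6 became 2 with only the compared groups fitted (Twist2 and Snai2) and 0 without the 3 arrays that stand apart. In the proximal mandible 1 became 0 with only the compared groups. In the distal maxilla and the distal mandible 0 became 1 with the replicate block (Snai2 both times) and 1 with array weights. The difference of the effect between jaws had 0, 1 with the replicate block (Twist2) and 4 with weights, and that between ends 1 with weights. The mean of 4 regions had 1 with weights, 1 without the 3 arrays and 3 over single arrays, which counts pieces of 1 number as separate. The fit without the 3 arrays also used single arrays, so that both choices changed. For control jaws 1 became 2 with only the compared groups, 3 with either block, 6 with weights and 4 without the 3 arrays in the distal ends, and 4 became 7 with weights in the proximal ends. Along the control maxilla 6 became 0 with only the compared groups. For mutant jaws in the distal ends 1 became 0 with no filter, every probe set on its own, only the compared groups or median centring, and 2 with the block within genotype, weights or without the 3 arrays. In mutant proximal ends 2 became 6 with weights, and along the mutant maxilla 0 became 3. For most of these alternatives, and for arrays left out in turn, the share of all genes called is not given. A move in these counts therefore cannot be told apart from a like move in all genes. The causes were not tested. The replicate block gave 7 calls in the proximal maxilla (Tfap2a added), 6 in control proximal ends (Tfap2a and Twist1 added) and 3 in mutant proximal ends (Snai2 added), besides the moves above, and changed no other count.

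Leaving out each array in turn gave 4 to 6 calls in the proximal maxilla, 0 to 1 in the distal maxilla, the proximal mandible and the mean of regions, and 0 to 0 in the distal mandible. It gave 0 to 3 for the difference between jaws and 0 to 0 for that between ends. In controls it gave 0 to 5 along the maxilla, 1 to 1 along the mandible, 1 to 1 between distal ends and 3 to 5 between proximal ends, and in mutants 0 to 1, 2 to 2, 0 to 1 and 2 to 3. Probe sets below the array medians give little but background, which limits the dimmest sets of Prrx1 and Tfap2a.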
